A study of Homo sapiens with 16 samples.

Results

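The libraries described here are the 8 of the human melanoma line A101D, with replicates 5 to 8 set against replicates 1 to 4. They are 8 of the 16 libraries of the series, and the other 8 come from the melanoma line MeWo. The sides were defined by replicate number, and the split was chosen from the values themselves, because the libraries of A101D had been seen to fall apart along it. Every A101D difference is therefore a description with its error, and no test of it is given. The only test is of the same split in MeWo, in libraries that the choice of A101D sides did not use, although that split too had been seen in earlier results.

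Both lines were grown in DMEM lacking methionine, cystine and glutamine, to which dialyzed serum, glutamine and 150 µM cystine were returned. The control medium held 200 µM methionine and the other medium held 200 µM homocysteine in its place. Labels give the line and the replicate number of each library but not its medium, so neither side is called control or treated. A101D is described as dependent on methionine, and MeWo as a line that homocysteine can rescue. Each is a single established cell line, so what holds for A101D is not shown for other methionine-dependent cells. Nothing in the labels says that replicates are separate cultures, so the spread between them may be technical.

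Methionine is an essential amino acid that starts protein chains and supplies methyl groups. Methionine adenosyltransferase turns it into S-adenosylmethionine, methyl transfer leaves homocysteine, and methionine synthase can turn homocysteine back into methionine. When an amino acid runs short, uncharged tRNA activates the kinase GCN2, and translation of the transcription factor ATF4 goes up while most translation goes down. ATF4 then drives genes of amino acid synthesis, uptake and tRNA charging. Entry into S phase depends on E2F factors, which switch on the genes that copy DNA.

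The 8 libraries held 28910881 to 38961862 counts. Values are CPM, counts scaled to a library of 1000000 after a correction for composition by the TMM method (trimmed means of M). The scaling factors were at most 0.972 in replicates 1 to 4 and at least 1.03 in replicates 5 to 8. Thinned to 28910881 counts each, replicates 1 to 4 had a count for 31098 to 31748 genes and replicates 5 to 8 for 33301 to 33718. Mitochondrial transcripts took 1.71% to 1.92% and 1.93% to 2.33% of the counts. Libraries of one side differed by a root mean square log2 difference of at most 0.409, and libraries of different sides by at least 0.833. The part of these shifts in single genes was not tested. All differences are relative to the other genes of a library: fewer cells that use a gene and less of its RNA per cell cannot be told apart.

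Across the transcriptome, genes of the ATF4 and amino acid response were higher in replicates 5 to 8, and genes of DNA replication, mitosis and histones were lower. A gene was counted when the fitted difference was at least 2-fold and no library of one side overlapped the other. Of 19673 genes with enough counts, 1912 (9.72%) were counted higher and 1180 (6.0%) lower. At any size, 6390 genes (32.5%) were higher and 6268 (31.9%) lower with no overlap, and 7015 overlapped. More than 4-fold, 503 genes were higher and 187 lower. The median log2 difference over all genes was 0.01, which is the level against which a gene group is read. These shares describe a contrast chosen for its size, and the counts of list members below are read against them. Scaling by total counts alone moved the median gene by 0.101 on the log2 scale.

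The filter on low counts asked for 0.296 CPM, or 10 counts at the median depth, in at least 4 of the 8 libraries. It let in 480 genes through replicates 5 to 8 alone, of which 454 were counted higher, and 99 through replicates 1 to 4 alone, of which 95 were counted lower. Among the 16852 genes that reached the minimum in all 8 libraries, 1050 were counted higher and 941 lower. Many of the genes counted higher were scarce: 315 of them (16.5%) had a mean of at least 10 CPM, against 564 (47.8%) of the genes counted lower. Protein-coding genes made up 71.5% of the genes tested, 56.7% of those counted higher and 74.7% of those counted lower.

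**Figure D1:**
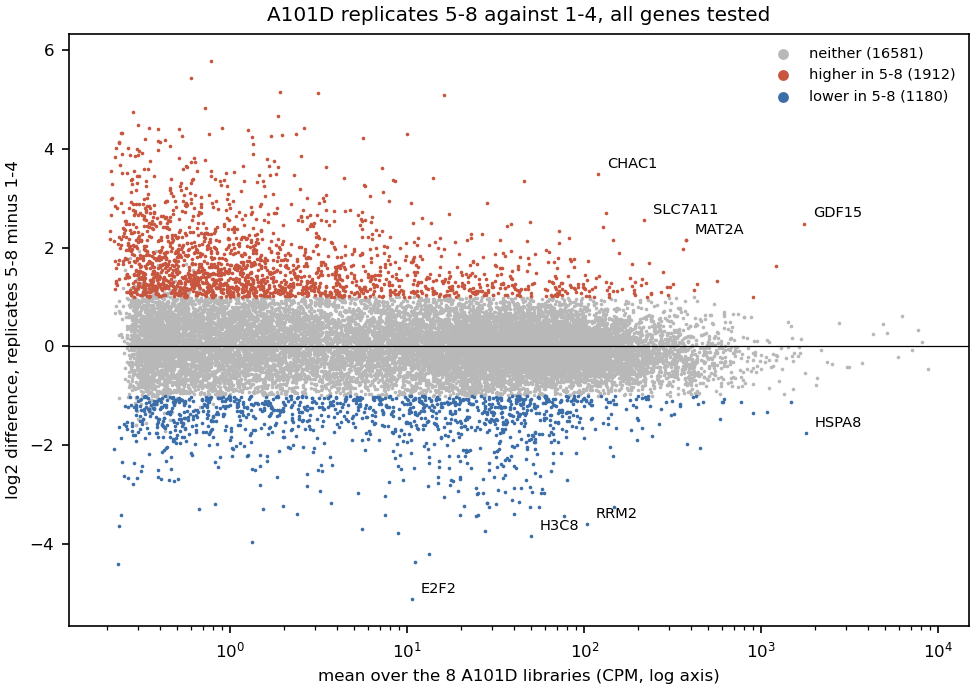
Log2 difference of replicates 5 to 8 minus replicates 1 to 4 in A101D (vertical axis) against the mean CPM over the 8 libraries (horizontal log axis), 1 point per gene tested. Red points are the 1912 genes counted higher, blue points the 1180 counted lower and grey points the rest. Most red points lie at low CPM, while CHAC1, SLC7A11, MAT2A and GDF15 are high at larger means.

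Of the 35 genes listed for ATF4 and the amino acid response, all had enough counts, 24 were counted higher and none lower, and the median log2 difference was 1.69. ATF4 (ENSG00000128272, chromosome 22, 39519695 to 39522685), the transcription factor itself, had 318, 314, 337 and 318 CPM in replicates 1 to 4 and 788, 828, 808 and 813 CPM in replicates 5 to 8. The sides did not overlap, and the log2 difference was 1.33 ± 0.03 (SE, n = 4 per side, as for every difference given here). CHAC1 (ENSG00000128965, chromosome 15, 40952962 to 40956519), which degrades glutathione, had 19.3, 21.3, 18.4 and 19.6 CPM in replicates 1 to 4 and 229.5, 238, 221 and 193 CPM in replicates 5 to 8. This was 11.2-fold higher (3.48 ± 0.07), the largest positive difference among the genes with a symbol that averaged 10 CPM or more and whose sides did not overlap. CEBPG, a partner of ATF4 on DNA, had 34, 34.6, 37.2 and 34.8 CPM in replicates 1 to 4 and 243, 241, 227 and 202 CPM in replicates 5 to 8 (2.7 ± 0.06). TRIB3, a pseudokinase that restrains ATF4 signalling, had 37.6, 41.1, 41.9 and 40.6 CPM in replicates 1 to 4 and 218, 229, 218 and 198 CPM in replicates 5 to 8 (2.42 ± 0.05). Replicate 8 was the lowest of its side for CHAC1, CEBPG and TRIB3 and still far above replicates 1 to 4.

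The enzymes of the response were higher as well. ASNS, asparagine synthetase, had 2.17, 2.15, 2.27 and 2.47 CPM in replicates 1 to 4 and 10.01, 9.65, 10.7 and 10.8 CPM in replicates 5 to 8, 4.52-fold higher. PSAT1, the aminotransferase of serine synthesis, was at 107 to 112 CPM in replicates 1 to 4 against 336 to 367 CPM in replicates 5 to 8 (1.69 ± 0.03). PHGDH, the first enzyme of that pathway, was at 118 to 131 CPM in replicates 1 to 4 against 227 to 233 CPM in replicates 5 to 8, short of 2-fold at 1.86-fold. Among the regulators, DDIT3 (CHOP, a stress transcription factor) was at 13.8 to 15.7 CPM in replicates 1 to 4 against 44.9 to 52 CPM in replicates 5 to 8. ATF3, another stress factor, differed by 1.11 ± 0.06 and SESN2, which senses leucine and restrains mTORC1, by 1.76 ± 0.06. GDF15, a secreted stress cytokine, had 583, 514, 484 and 534 CPM in replicates 1 to 4 and 3127, 3102, 3101 and 2569.7 CPM in replicates 5 to 8. It was 5.61-fold higher, with replicate 8 below the other libraries of its side. STC2, a secreted glycoprotein induced by stress, differed by 2.15 ± 0.09, and VLDLR, a lipoprotein receptor, by 0.64 ± 0.05, without overlap but under 2-fold.

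Of the 11 members not counted, ALDH18A1, which makes proline precursors, was the one that was lower without overlap (-0.29 ± 0.03), and ATF5 and XPOT overlapped (-0.01 and 0.09). FGF21, a hormone of fasting, had 2 counts in replicates 1 to 4 together and 165 in replicates 5 to 8, a depth-scaled ratio of 76.9 (exact 95% interval 20.9 to 639.9). It passed the filter on low counts through replicates 5 to 8 alone, so it had to differ, and of the 34 members that reached the minimum in all 8 libraries 23 were counted higher. These intervals cover counting error only. ADM2, a peptide of the calcitonin family, is not on the list and stood among the largest differences, with 8.0, 6.43, 9.47 and 9.16 CPM in replicates 1 to 4 and 82.5, 89.2, 83.3 and 78.1 CPM in replicates 5 to 8 (3.35 ± 0.08). So did CITED2, a transcriptional coregulator (2.52 ± 0.14), G0S2, an inhibitor of fat breakdown (2.91 ± 0.15), and TNFSF4, the ligand of OX40 (2.5 ± 0.12). The remaining genes of the 12 largest were the noncoding LINC02915, ANKFN1, C6orf141, DHRS2, SLC7A11 and HSPA7, at log2 differences of 2.9, 2.68, 2.61, 2.5, 2.55 and 3.41. HSPA7 is a pseudogene close to other heat shock genes, so its counts are uncertain.

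**Figure D2:**
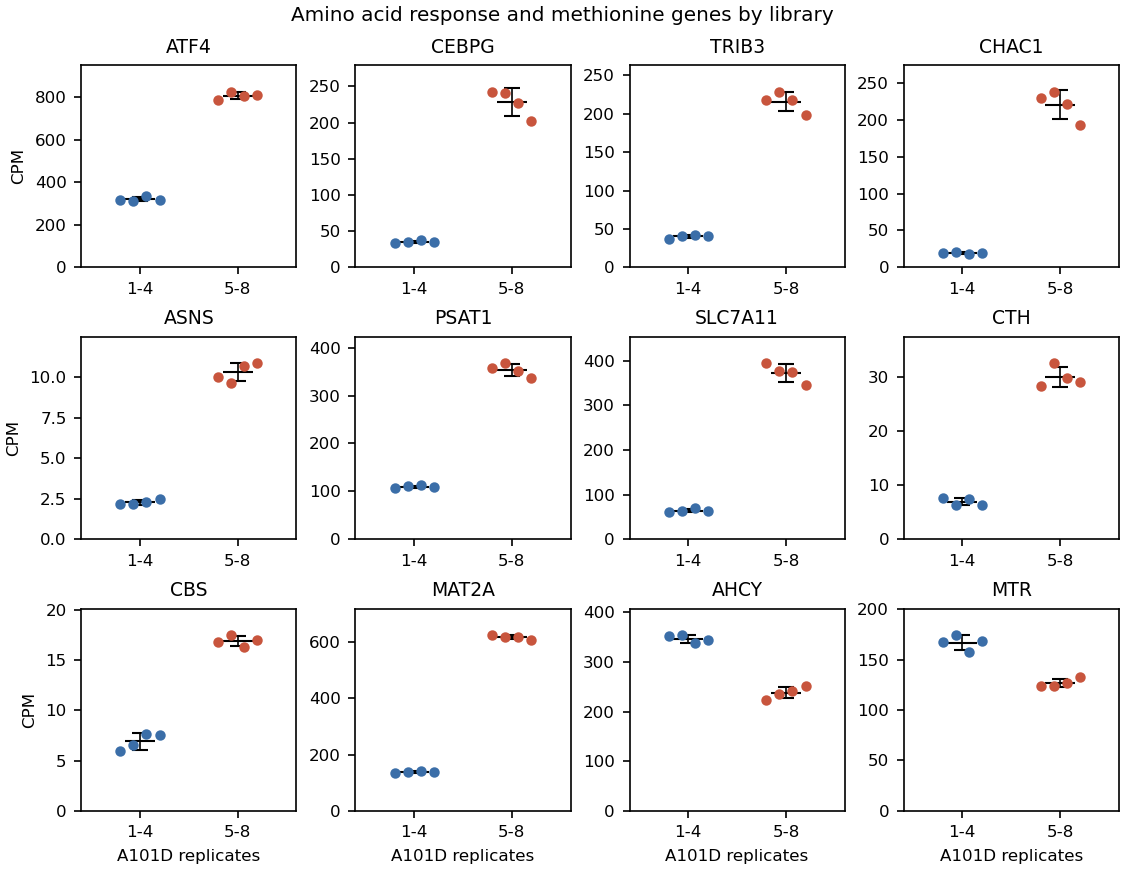
CPM of 12 amino acid response and methionine genes in the 8 A101D libraries, by side (blue, replicates 1 to 4; red, replicates 5 to 8). Points are libraries, and the bar is the mean with its SD (n = 4). The 10 genes from ATF4 to MAT2A are higher in replicates 5 to 8 without overlap, and AHCY and MTR are lower.

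Some promoters of the ATF4 list and of the tRNA synthetases hold the core letters TGATGNAA of the element that ATF4 binds with a C/EBP partner. The stretches around the match are shown for 3 genes of the ATF4 list, which were all counted higher, and for AARS1 and IARS1, 2 tRNA synthetases that were not (0.87 and 0.42). Promoters are those of RefSeq (GRCh38.p14), 250 bases before to 50 after the start site, searched on both strands. Capitals mark the match, read 5′ to 3′ on the gene's strand, where TTGCATCA is the same element on the opposite strand.
CHAC1, chr15:40953237-40953294, + strand: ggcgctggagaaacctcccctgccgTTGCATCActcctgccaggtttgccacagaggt
ASNS, chr7:97872444-97872501, - strand: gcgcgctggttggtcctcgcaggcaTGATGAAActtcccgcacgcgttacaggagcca
ATF3, chr1:212565191-212565248, + strand: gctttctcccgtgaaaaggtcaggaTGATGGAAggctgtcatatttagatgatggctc
AARS1, chr16:70289661-70289718, - strand: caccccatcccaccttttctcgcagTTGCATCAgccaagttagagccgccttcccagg
IARS1, chr9:92293698-92293735, - strand: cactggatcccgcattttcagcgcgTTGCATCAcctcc
The match lay 209 bases before the start in CHAC1, 68 in ASNS and 13 in IARS1. The letters were found in 62 of 1077 promoters of genes counted higher (5.76%), 10 of 758 of genes counted lower (1.32%) and 258 of 12716 of genes tested (2.03%). Over all 27305 promoters of the table the share was 3.67%. On the ATF4 list 5 of 27 promoters held them. On the list of cytosolic tRNA synthetases, where 1 of 20 genes was counted higher, 6 of 16 promoters did. A match is a description of letters and not of binding.

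The genes that handle methionine did not all differ in one direction. Of 28 genes of the methionine cycle and methyl group supply, 23 had enough counts, 1 was counted higher, 4 were counted lower, and the median log2 difference was -0.40. MAT2A (ENSG00000168906, chromosome 2, 85539165 to 85545280), which makes S-adenosylmethionine, had 134, 139, 142 and 138 CPM in replicates 1 to 4 and 624, 619, 619 and 606 CPM in replicates 5 to 8. It was 4.46-fold higher (2.16 ± 0.03), and the libraries of each side lay close together. MTR, methionine synthase, had 167, 174, 157 and 169 CPM in replicates 1 to 4 and 124, 124, 127 and 133 CPM in replicates 5 to 8, lower without overlap but under 2-fold (-0.40 ± 0.04). AHCY, which splits S-adenosylhomocysteine into homocysteine and adenosine, was at 337 to 354 CPM in replicates 1 to 4 against 224 to 251 CPM in replicates 5 to 8 (-0.55 ± 0.03).

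In the folate arm, MTHFD2, the mitochondrial dehydrogenase that is also an ATF4 target, was at 144 to 169 CPM in replicates 1 to 4 against 285 to 313 CPM in replicates 5 to 8, higher at 0.95 ± 0.04. MTHFD1, its cytosolic counterpart, was at 90.7 to 104 CPM in replicates 1 to 4 against 40.1 to 42.5 CPM in replicates 5 to 8, 2.3-fold lower. GAMT, the methyltransferase of creatine synthesis, was 2.19-fold lower, and PEMT, a methyltransferase of phospholipid synthesis, was also lower (-1.09 ± 0.07). In methionine salvage and polyamine synthesis, 15 of 16 genes had enough counts, 1 was counted higher and 2 lower. GOT1, an aminotransferase, was the higher one (1.34 ± 0.05), and SMS, spermine synthase, was lower with 235, 248, 248 and 239.9 CPM in replicates 1 to 4 and 86.7, 99.2, 97.8 and 118 CPM in replicates 5 to 8. PAOX, a polyamine oxidase, was the other, on few counts: 86 counts in replicates 1 to 4 together and 35 in replicates 5 to 8, a depth-scaled ratio of 0.379 (exact 95% interval 0.248 to 0.568). AMD1, which commits S-adenosylmethionine to polyamines, was at 397 to 420.3 CPM in replicates 1 to 4 against 179 to 235 CPM in replicates 5 to 8, just short of the 2-fold limit (-0.998 ± 0.07). SMOX, spermine oxidase, was the mirror case at 0.998 ± 0.08.

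Transsulfuration carries homocysteine to cysteine through CBS and CTH, and cystine enters through the exchanger made of SLC7A11 and SLC3A2. Of 17 genes listed for this route and glutathione, 15 had enough counts, and 5 were counted higher and none lower. The 5 were CHAC1, SLC7A11, CTH, CBS and SLC3A2, and apart from CBS they are also on the ATF4 list. SLC7A11 (ENSG00000151012, chromosome 4, 138164097 to 138242349) had 60.6, 62.4, 69.6 and 62.4 CPM in replicates 1 to 4 and 394, 377, 375 and 346 CPM in replicates 5 to 8 (5.86-fold higher). CTH had 7.61, 6.4, 7.49 and 6.42 CPM in replicates 1 to 4 and 28.4, 32.6, 29.9 and 29.2 CPM in replicates 5 to 8 (2.11 ± 0.08). CBS had 5.94, 6.52, 7.63 and 7.54 CPM in replicates 1 to 4 and 16.8, 17.5, 16.3 and 17 CPM in replicates 5 to 8 (1.31 ± 0.08), but it has a near-identical copy in the genome, so its counts are uncertain. The enzymes of glutathione synthesis stayed close to level, with GCLC at -0.11 and GCLM at -0.07, both with overlapping sides, and the list median was -0.08.

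Of 19 amino acid transporters 18 had enough counts, 6 were counted higher and 1 lower. SLC6A9, a glycine transporter, was at 16.3 to 18.5 CPM in replicates 1 to 4 against 71.5 to 80.5 CPM in replicates 5 to 8 (2.14 ± 0.05). SLC38A1, a glutamine transporter, differed by 1.61 ± 0.05 and SLC7A1, a carrier of arginine and lysine, by 1.21 ± 0.04. SLC7A11 and the pair SLC7A5 and SLC3A2, which together carry large neutral amino acids such as methionine, were the rest of the 6, and SLC7A5 stood at the limit (1.004 ± 0.04). SLC7A2, another carrier of basic amino acids, was lower (-1.09 ± 0.05).

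The cytosolic aminoacyl-tRNA synthetases, which charge tRNAs, split in direction. All 20 separated without overlap, 12 higher and 8 lower, against 32.5% higher and 31.9% lower of all genes tested. Only SARS1 (seryl) was counted higher (1.11 ± 0.03) and QARS1 (glutaminyl) lower (-1.2 ± 0.04). Of all genes tested 9.72% were counted higher and 6.0% lower. AARS1 (alanyl), whose promoter stretch is printed above, was at 212 to 229 CPM in replicates 1 to 4 against 389 to 411 CPM in replicates 5 to 8. FARSA (phenylalanyl) differed by -0.97 ± 0.03 and VARS1 (valyl) by -0.96 ± 0.03. Of the 17 mitochondrial synthetases, PARS2 (prolyl) was counted higher (1.17 ± 0.08) and none lower. IARS2 and EARS2 were lower without overlap, by under 2-fold (-0.37 and -0.54).

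Genes that copy DNA were lower in replicates 5 to 8. Of 35 DNA replication genes none was counted higher and 30 were counted lower, all 35 were lower without overlap, and the median log2 difference was -1.94. RRM2 (ENSG00000171848, chromosome 2, 10120698 to 10131419), the ribonucleotide reductase subunit that is made in S phase, had 181, 191, 200.2 and 191 CPM in replicates 1 to 4 and 14.2, 13.4, 17.1 and 18.7 CPM in replicates 5 to 8. It was 12.1-fold lower (-3.6 ± 0.07). MCM10, which is needed to start replication forks, had 35.8, 36.9, 38.7 and 34.6 CPM in replicates 1 to 4 and 3.4, 2.78, 3.62 and 3.85 CPM in replicates 5 to 8 (-3.42 ± 0.09). CLSPN (claspin, a fork checkpoint protein) was at 73.3 to 81.6 CPM in replicates 1 to 4 against 8.14 to 9.55 CPM in replicates 5 to 8 and CDC45, part of the replicative helicase, at 98.9 to 110.0 CPM in replicates 1 to 4 against 12.2 to 15.2 CPM in replicates 5 to 8. MCM2, a subunit of the helicase ring, had 71.9, 64.4, 69.3 and 65.7 CPM in replicates 1 to 4 and 11.9, 13, 12.2 and 13.3 CPM in replicates 5 to 8 (-2.43 ± 0.06). FEN1, which trims Okazaki fragments, was the smallest difference on the list, with 128 to 135 CPM in replicates 1 to 4 against 113 to 127 CPM in replicates 5 to 8 (-0.09 ± 0.04).

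The regulators upstream of S phase followed the same direction with exceptions. E2F2 (ENSG00000007968, chromosome 1, 23506430 to 23531220), an activating E2F factor, had 21.1, 19.6, 21.2 and 20.8 CPM in replicates 1 to 4 and 0.773, 0.768, 0.321 and 0.581 CPM in replicates 5 to 8. It was 34.8-fold lower, the most negative difference of any gene tested (-5.12 ± 0.19). E2F1 had 88.7, 79.5, 89.2 and 85.9 CPM in replicates 1 to 4 and 16.2, 16.6, 16.4 and 16.7 CPM in replicates 5 to 8 (-2.38 ± 0.05). CCNE2, a cyclin of the entry into S phase, was at 9.85 to 11.2 CPM in replicates 1 to 4 against 0.618 to 0.941 CPM in replicates 5 to 8 (-3.71 ± 0.16), and MYBL2, which drives late cell cycle genes, at 134 to 146 CPM in replicates 1 to 4 against 20.1 to 22.6 CPM in replicates 5 to 8 (-2.71 ± 0.05). E2F8, a repressing E2F factor, was also lower (-2.48 ± 0.12). CCND1, the cyclin of early G1, was at 233 to 261 CPM in replicates 1 to 4 against 205 to 229.7 CPM in replicates 5 to 8, a difference of -0.19 ± 0.04. CDKN1A (p21), the inhibitor of cyclin-dependent kinases, had 385, 382, 391 and 383 CPM in replicates 1 to 4 and 709, 715, 692 and 666 CPM in replicates 5 to 8, 1.81-fold higher. Of 22 cyclins, inhibitors and related factors with enough counts of 26 listed, none was counted higher and 10 were counted lower, and CDKN1A and CDKN2D were the 2 that were higher without overlap.

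The mitosis list held 30 genes, of which none was counted higher and 27 lower, with a median of -1.76 and no overlap for any of them. NUSAP1 passed the filter on low counts through replicates 1 to 4 alone, so it had to differ. Of the 29 members that reached the minimum in all 8 libraries 26 were counted lower and none higher. SPC25, part of the kinetochore, had 12.8, 13.6, 14.4 and 13.8 CPM in replicates 1 to 4 and 1.3, 1.09, 1.31 and 1.36 CPM in replicates 5 to 8 (-3.42 ± 0.13). AURKB, the kinase of the chromosomal passenger complex, was at 45.4 to 49.4 CPM in replicates 1 to 4 against 5.27 to 6.69 CPM in replicates 5 to 8 (-2.97 ± 0.07), and CDK1, the mitotic kinase, at 63.7 to 74.5 CPM in replicates 1 to 4 against 11.1 to 13.8 CPM in replicates 5 to 8 (-2.47 ± 0.07). CCNA2, a cyclin of S and G2, differed by -2.96 ± 0.06. TOP2A, the topoisomerase that untangles chromosomes, had 214, 231, 228 and 224 CPM in replicates 1 to 4 and 52.5, 53.7, 57.7 and 55.6 CPM in replicates 5 to 8 (-2.03 ± 0.04). MKI67, the proliferation marker Ki-67, had 165, 155, 168 and 156 CPM in replicates 1 to 4 and 63.3, 58.3, 58.3 and 57.2 CPM in replicates 5 to 8 (-1.44 ± 0.04). Of the 21 genes of homologous recombination and the Fanconi pathway, 16 were counted lower and none higher. Among them RAD54L, RAD51AP1 and XRCC2 differed by -2.7, -2.44 and -2.07.

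**Figure D3:**
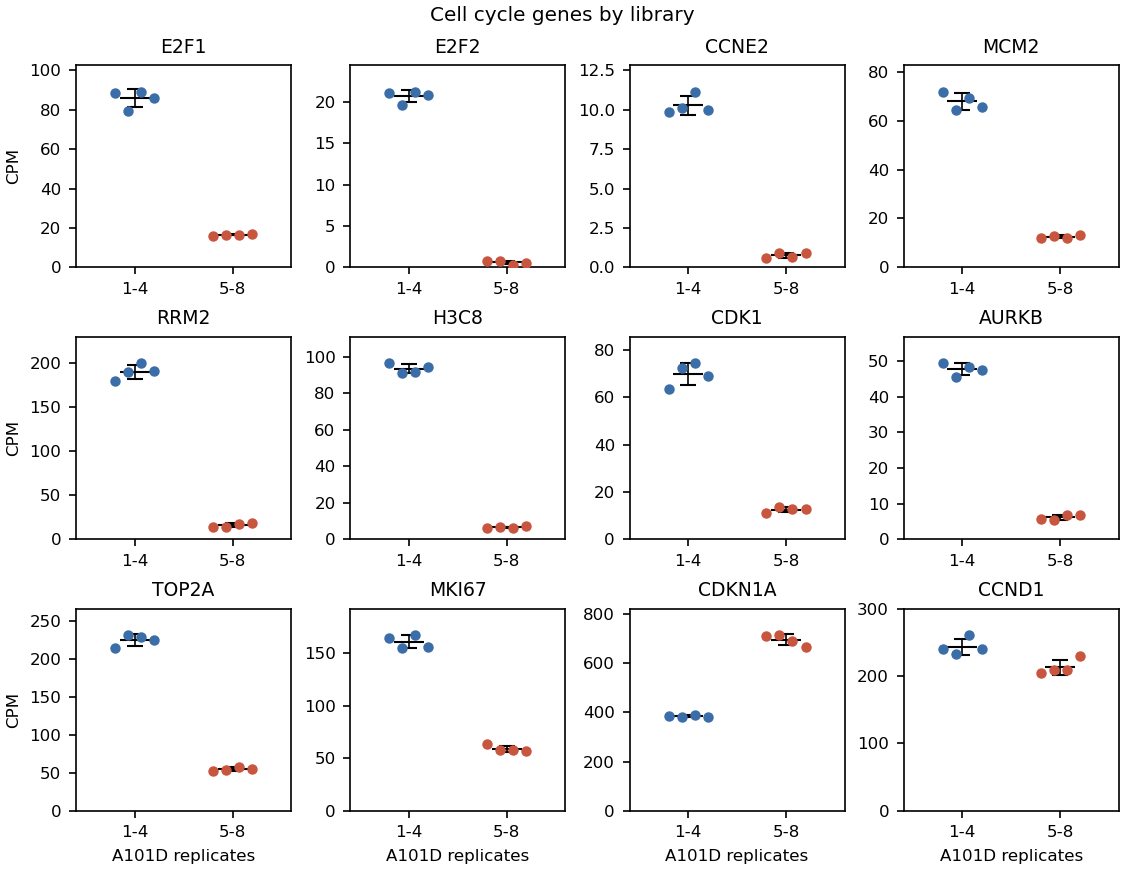
CPM of 12 cell cycle genes in the 8 A101D libraries, by side (blue, replicates 1 to 4; red, replicates 5 to 8). Points are libraries, and the bar is the mean with its SD (n = 4). All but CDKN1A are lower in replicates 5 to 8 without overlap, from E2F2 at 34.8-fold lower to CCND1 at 1.14-fold lower.

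Promoters of these genes differ in the letters they hold, and examples of each set are shown because DNA replication and mitosis genes were lower together. Capitals mark the letters of an E2F site, TTTGGCGC or TTTCCCGC (GCGGGAAA on the opposite strand), in the first 4 promoters. In the others they mark TTTGAA, the letters of the CHR element of mitotic genes.
CDT1, chr16:88803729-88803786, + strand: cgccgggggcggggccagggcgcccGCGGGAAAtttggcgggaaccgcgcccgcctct
GINS2, chr16:85688955-85689010, - strand: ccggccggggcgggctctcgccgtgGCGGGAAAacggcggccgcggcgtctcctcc
RFC3, chr13:33818069-33818126, + strand: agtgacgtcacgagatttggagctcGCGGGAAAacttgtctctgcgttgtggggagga
MCM6, chr2:135876501-135876620, - strand: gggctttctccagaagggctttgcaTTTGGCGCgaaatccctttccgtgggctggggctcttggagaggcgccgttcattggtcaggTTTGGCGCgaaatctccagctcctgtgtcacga
SPC25, chr2:168890647-168890680, - strand: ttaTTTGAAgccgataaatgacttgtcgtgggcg
CDK1, chr10:60778145-60778200, + strand: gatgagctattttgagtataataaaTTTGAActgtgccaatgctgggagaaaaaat
CENPA, chr2:26786013-26786055, + strand: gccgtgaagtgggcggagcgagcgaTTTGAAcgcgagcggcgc
CCNB2, chr15:59105092-59105145, + strand: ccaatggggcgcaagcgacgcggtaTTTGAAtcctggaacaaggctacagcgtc
The MCM6 promoter held 2 matches of the E2F letters, 152 and 90 bases before the start. TTTGAA lay 247 bases before the start in SPC25, 161 in CDK1, 18 in CENPA and 29 in CCNB2. Here too a match describes letters and not binding. E2F letters were found in 16 of 31 promoters of the DNA replication list, in 7.39% of those of genes counted lower, in 1.58% of those of genes counted higher and in 3.48% of those of genes tested (2.31% of the whole table). TTTGAA was found in 17 of 25 promoters of the mitosis list, in 19.4% of genes counted lower, 15.1% of genes counted higher and 10.6% of genes tested (15.4% of the table). The 4 replication genes, CDT1 (origin licensing), GINS2 and MCM6 (helicase) and RFC3 (clamp loader), differed by -2.92, -2.65, -1.94 and -2.3. CENPA, the centromeric histone, and CCNB2, cyclin B2, differed by -2.47 and -2.15.

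Histone genes that are transcribed in S phase were the lowest list of all 30. Of 46 listed, 43 had enough counts, 40 were counted lower and none higher, and the median log2 difference was -2.57. Together they took at least 0.2999% of all counts in each of replicates 1 to 4 and at most 0.0796% in each of replicates 5 to 8. H3C8 had 96.3, 91.2, 91.8 and 94.3 CPM in replicates 1 to 4 and 6.24, 6.65, 6.13 and 7.0 CPM in replicates 5 to 8 (-3.84 ± 0.06), and H3C12, H3C2, H2BC3, H2BC11 and H3C1 differed by -3.75, -3.44, -3.43, -3.41 and -3.26. H3C6 was higher without overlap, at 11.1 to 12.3 CPM in replicates 1 to 4 against 14.4 to 15.8 CPM in replicates 5 to 8. Copies of one histone are nearly identical, so the division of counts among them is uncertain. The other genes of the 12 most negative differences were FAM111B, a protease (-4.38 ± 0.15), ZNF367, a zinc finger factor (-4.21 ± 0.14), and ASF1B, a histone chaperone (-3.45 ± 0.08).

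Genes of methylation were lower more often than higher. Of 28 genes listed for DNA and histone methylation, with METTL3, METTL14 and METTL16 among them, 4 were counted lower and none higher. The median was -0.21. Without overlap 17 were lower and 7 higher, against 31.9% and 32.5% of all genes tested. UHRF1, which guides maintenance methylation to replicated DNA, had 95.6, 90.9, 101.3 and 97.2 CPM in replicates 1 to 4 and 13.9, 16.2, 14.7 and 17.3 CPM in replicates 5 to 8 (-2.63 ± 0.06). EZH2, the H3K27 methyltransferase, was at 84.1 to 86.5 CPM in replicates 1 to 4 against 24.7 to 25.1 CPM in replicates 5 to 8 (-1.77 ± 0.04), while its homologue EZH1 was at 25.4 to 30.8 CPM in replicates 1 to 4 against 49.3 to 54 CPM in replicates 5 to 8 (0.84 ± 0.05). DNMT3B, a de novo DNA methyltransferase, differed by -1.55 ± 0.10, SUV39H1, an H3K9 methyltransferase, by -1.05 ± 0.06, and the maintenance enzyme DNMT1 by -0.70 ± 0.03.

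Genes of lipid synthesis were lower. For cholesterol and fatty acid synthesis, 29 of 30 genes had enough counts, 11 were counted lower and none higher, with a median of -0.81. INSIG1, which holds the sterol sensor in the endoplasmic reticulum (ER), had 112, 114, 102 and 108 CPM in replicates 1 to 4 and 20.8, 24.1, 25.8 and 27 CPM in replicates 5 to 8 (-2.16 ± 0.06). HMGCS1, an enzyme of cholesterol synthesis, was at 50.9 to 57.3 CPM in replicates 1 to 4 against 19.6 to 23.3 CPM in replicates 5 to 8. FADS1 and FADS2, fatty acid desaturases, differed by -1.79 ± 0.06 and -1.89 ± 0.04. SREBF1, which codes for a factor of the fatty acid genes, was higher without overlap (0.57 ± 0.06).

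Among 19 heat shock genes 3 were counted lower and none higher, 14 were lower and 4 higher without overlap, and the median was -0.64. HSPA8, the constitutive HSP70 chaperone, had 2614, 2888, 2837 and 2696 CPM in replicates 1 to 4 and 702, 770.4, 838 and 956 CPM in replicates 5 to 8 (-1.76 ± 0.09). HSPD1 and HSPE1, the mitochondrial chaperonin pair, differed by -1.13 ± 0.04 and -0.97 ± 0.05, and HSPB8, a small heat shock protein, by -1.03 ± 0.04. Of the 23 genes on the ER chaperone list 11 were higher and 9 lower without overlap, with a median of 0.02. For all genes tested these shares were 32.5% and 31.9%. On this list 1 gene was counted higher and 1 lower. The higher one was ERN1 (IRE1, an ER stress sensor), with 14.5, 14.7, 15.2 and 14.6 CPM in replicates 1 to 4 and 60.01, 57.6, 55.5 and 46.3 CPM in replicates 5 to 8 (1.89 ± 0.08). The lower one was MANF, a secreted ER protein (-1.17 ± 0.05), and CRELD2 and SDF2L1 differed by -0.73 and -0.55.

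Cytosolic ribosomal protein genes were lower without overlap in 46 of 49 cases, 8 of them by at least 2-fold, with a median of -0.52. Together they took at least 3.08% of all counts in each of replicates 1 to 4 and at most 2.41% in each of replicates 5 to 8. RPL3 had 864, 863, 853 and 845 CPM in replicates 1 to 4 and 276, 309, 309.8 and 350.1 CPM in replicates 5 to 8 (-1.46 ± 0.05), and RPL10A, RPL13A and RPL14 differed by -1.38, -1.34 and -1.22. Ribosomal protein genes have many processed copies, so their counts are uncertain. For glycolysis and the hypoxia response, 25 of 26 genes had enough counts, 1 was counted higher and none lower, though 19 were lower without overlap. LDHA (lactate dehydrogenase) and PFKL (phosphofructokinase) differed by -0.91 ± 0.05 and -0.89 ± 0.04. VEGFA, the vascular growth factor, was the higher one, with 88.6, 81.4, 94.6 and 91.4 CPM in replicates 1 to 4 and 314, 297, 278 and 247 CPM in replicates 5 to 8 (1.67 ± 0.08), and the glucose carrier SLC2A3 differed by 0.93 ± 0.05.

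Several stress and signalling genes were higher. Of 24 p53 targets 5 were counted higher and 2 lower, with a median of 0.51, and GDF15 and SESN2 among the 5 are also on the ATF4 list. PMAIP1 (NOXA, a death-promoting BCL2 family member) had 10.3, 11.2, 13.9 and 10.7 CPM in replicates 1 to 4 and 63.3, 67.1, 64.3 and 51.9 CPM in replicates 5 to 8 (2.43 ± 0.11), TIGAR, a regulator of glycolysis, differed by 1.62 ± 0.05, and GADD45A by 1.28 ± 0.05. DDB2, a DNA damage sensor, was among the lower genes (-1.05 ± 0.04). For MAPK output, 4 of 18 genes were counted higher and none lower. Without overlap 11 were higher and 3 lower, and the lowest log2 difference on the list was -0.96. EGR1, an immediate early factor, had 1.74, 1.44, 1.58 and 1.36 CPM in replicates 1 to 4 and 9.92, 10.5, 10.1 and 6.89 CPM in replicates 5 to 8 (2.58 ± 0.18). DUSP6, the phosphatase that shuts off ERK, was at 176 to 193 CPM in replicates 1 to 4 against 402 to 476 CPM in replicates 5 to 8 (1.27 ± 0.05), and IER3 and PHLDA1 differed by 1.51 ± 0.04 and 1.63 ± 0.03.

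Of 19 inflammatory cytokine genes with enough counts of 20 listed, 9 were counted higher and none lower. IL1A, interleukin 1 alpha, had 7.76, 7.27, 8.28 and 8.29 CPM in replicates 1 to 4 and 34.9, 32.9, 36.6 and 37.2 CPM in replicates 5 to 8 (2.16 ± 0.07). PTGS2 (COX-2) and TNFAIP3 (A20, a brake on NF-kappaB) differed by 1.52 ± 0.10 and 1.19 ± 0.05. CCL2, a monocyte chemokine, went the other way, at 207 to 253 CPM in replicates 1 to 4 against 123 to 149 CPM in replicates 5 to 8 (-0.77 ± 0.07). TNF had 2 counts in replicates 1 to 4 together and 82 in replicates 5 to 8, a depth-scaled ratio of 38.2 (exact 95% interval 10.2 to 321). TNF and CSF2 passed the filter on low counts through replicates 5 to 8 alone, so they had to differ, and of the 15 members that reached the minimum in all 8 libraries 6 were counted higher and none lower. Of 25 interferon-stimulated genes with enough counts of 26 listed, 5 were counted higher and none lower, with a median of 0.48. Of the 22 that reached the minimum in all 8 libraries 3 were counted higher. IFIT2 and IRF7, an RNA-binding antiviral protein and a transcription factor, had log2 differences of 1.64 ± 0.07 and 1.33 ± 0.09, and IFIT3 of 0.88 ± 0.05.

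The labelled cell type was checked against 10 pigment cell markers, all of which had enough counts. Their summed level was 3014 to 3547 CPM in replicates 1 to 4 against 2621 to 2861 CPM in replicates 5 to 8. SOX10, a lineage factor, was at 376 to 413 CPM in replicates 1 to 4 against 356 to 380.4 CPM in replicates 5 to 8 and overlapped. PMEL, a melanosome protein, overlapped too, at 185 to 229 CPM in replicates 1 to 4 against 228 to 249 CPM in replicates 5 to 8. MITF, the master factor of pigment cells, was at 195 to 238 CPM in replicates 1 to 4 against 143 to 159 CPM in replicates 5 to 8, lower by under 2-fold (-0.54 ± 0.05), and MLANA differed by -0.73 ± 0.11. Of the 19 pigment cell genes with enough counts of 20 listed, 12 were lower and 3 higher without overlap, with a median of -0.30. For all genes tested these shares were 31.9% and 32.5%. Of the 19, 1 was counted higher and 1 lower. The higher one was TYRP1, a melanosomal enzyme, with 52 counts in replicates 1 to 4 together and 201 in replicates 5 to 8, a depth-scaled ratio of 3.6 (exact 95% interval 2.64 to 4.98). The lower one was TRPM1, a cation channel of pigment cells (-2.33), whose mean was under 5 CPM. Among 21 invasive-state genes with enough counts of 22 listed, 1 was counted higher and none lower. AXL, a receptor of that state, differed by -0.35 ± 0.04, CCN1 by 0.99 ± 0.08 and TEAD4 by -0.75 ± 0.06.

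Markers of other cell types were also measured. The 6 fibroblast markers summed to 913 to 1043 CPM in replicates 1 to 4 against 586 to 652 CPM in replicates 5 to 8, nearly all of it COL1A2 (910.1 to 1039 CPM in replicates 1 to 4 against 581 to 647 CPM in replicates 5 to 8). In MeWo COL1A2 was at 0.357 to 0.625 CPM in replicates 1 to 4 against 0.257 to 0.382 CPM in replicates 5 to 8. The 3 endothelial markers summed to 3.78 to 4.77 CPM and 15.3 to 19.9 CPM, and all 3 were counted higher. The 6 keratinocyte and epithelial markers summed to 119.5 to 125 CPM and 163 to 193 CPM, mostly KRT18, with KRT14, KRT8 and CDH1 counted higher. The 5 immune markers summed to 2.80 to 2.96 CPM and 3.44 to 3.77 CPM, mostly LYZ. Of the red cell markers 2 of 3 had no count in any library. Their part in the differences above was not tested.

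**Figure D4:**
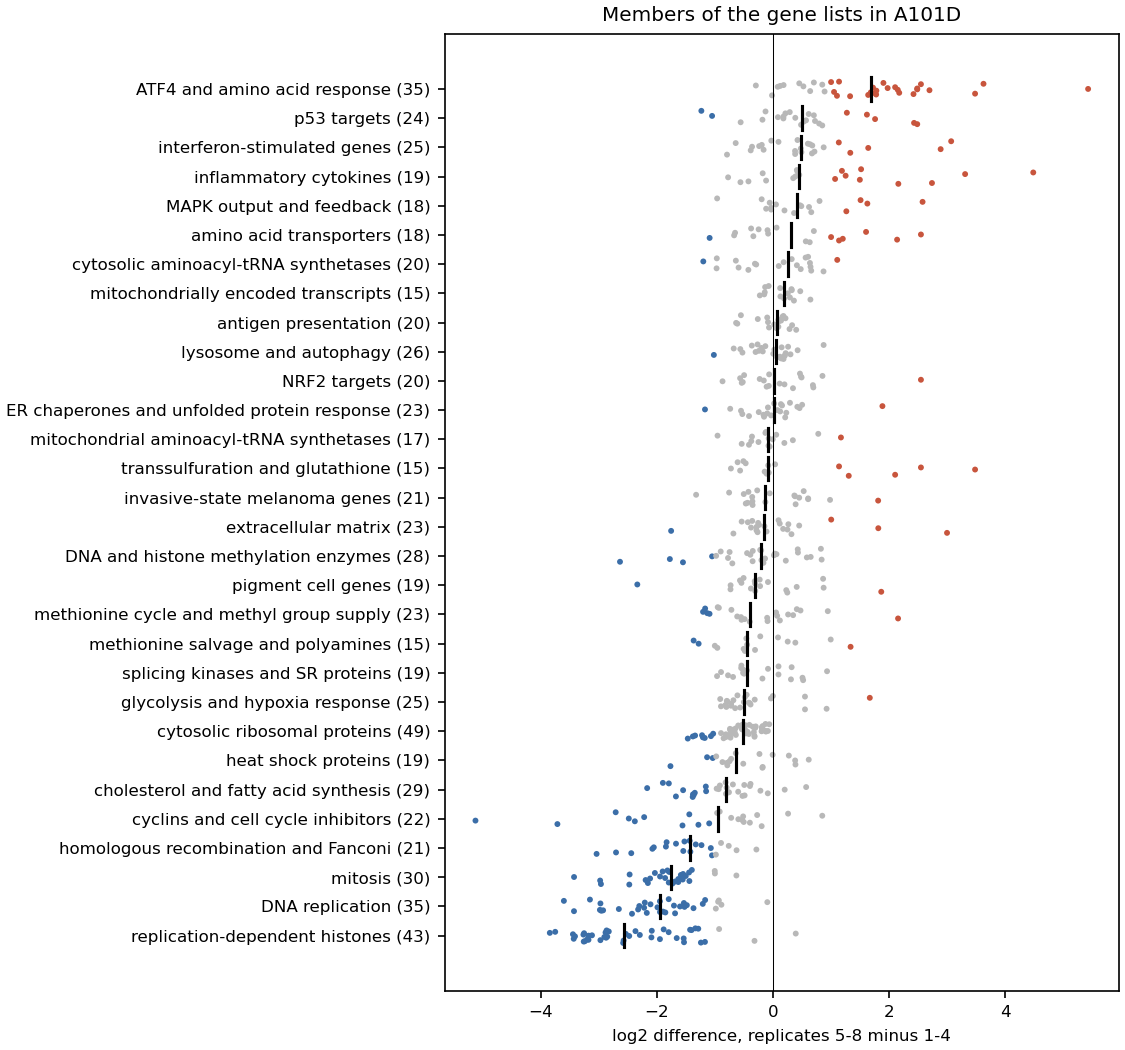
Log2 differences of replicates 5 to 8 minus replicates 1 to 4 in A101D for the members of the 30 gene lists, with the number tested in brackets. Each point is a gene (red, counted higher; blue, counted lower; grey, neither), and the black bar is the list median. Medians run from -2.57 for histones to 1.69 for the ATF4 list.

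The same split in MeWo asks whether replicates 5 to 8 also differ from replicates 1 to 4 in libraries outside the A101D choice. Here genes of the ATF4 list and interferon-stimulated genes were higher in replicates 5 to 8 and genes of cholesterol synthesis lower, mostly by small amounts. With limma and a Benjamini-Hochberg adjusted p under 0.05, 1481 of 18196 genes (8.14%) were higher and 1703 (9.36%) lower. Of these, 27 and 53 differed by at least 2-fold. With total counts alone the split was 2209 higher and 1098 lower. MeWo replicate 2 had 34471 genes with a count, against at most 31433 in the other MeWo libraries, and without it 1204 genes were higher and 1300 lower. Small noncoding RNA took 1.56% to 1.76% of the counts in MeWo replicates 1 to 4 and 0.75% to 1.09% in replicates 5 to 8, and in A101D 1.08% to 1.34% and 0.854% to 1.02%. RN7SL1, the RNA of the signal recognition particle, was lower in MeWo (-0.98, adjusted p 0.00670, limma, lower in all 4 libraries). The part of these shares in the MeWo differences was not tested. Of the 1912 genes counted higher in A101D, 1010 were tested in MeWo, where 243 were higher (24.1% of them, and 16.4% of the MeWo genes called higher) and 9 were lower. Of the 1180 counted lower, 1021 were tested, and 243 were lower (23.8%, and 14.3% of the MeWo genes called lower) and 29 higher. The median log2 difference of these genes was 0.20 in MeWo against 1.33 in A101D for the higher set, and -0.07 against -1.36 for the lower set. No difference between the lines was tested.

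MAT2A was higher in MeWo too, at 174 to 193 CPM in replicates 1 to 4 against 618 to 670.0 CPM in replicates 5 to 8 (log2 difference 1.82, adjusted p 3.68e-32, limma, higher in all 4 libraries). Of the 33 ATF4 list genes tested in MeWo, 21 were higher and 3 lower, with a median of 0.33. ATF4 was at 318 to 326 CPM in replicates 1 to 4 against 505 to 561 CPM in replicates 5 to 8 (0.73, adjusted p 4.98e-19, limma). CHAC1 was at 13.6 to 15.3 CPM in replicates 1 to 4 against 32.4 to 41.7 CPM in replicates 5 to 8 (1.39, adjusted p 2.60e-09, limma). ASNS, CTH, TRIB3 and CEBPG were higher at 0.65, 0.65, 0.65 and 0.60. SLC7A11 went the other way, at 708 to 758 CPM in replicates 1 to 4 against 628 to 706 CPM in replicates 5 to 8 (-0.10, adjusted p 0.0382, limma), and this call was lost in 10 of the alternatives, among them leaving out any one of replicates 1, 2, 3, 4, 5 and 7 (adjusted p 0.0549 to 0.20).

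Of the 35 DNA replication genes 19 were lower in MeWo and none higher, with a median of -0.12 against -1.94 in A101D. RRM2 was at 229 to 235 CPM in replicates 1 to 4 against 206 to 213 CPM in replicates 5 to 8 (-0.15, adjusted p 0.00124, limma) and E2F2 at 60.9 to 64 CPM in replicates 1 to 4 against 49.5 to 57.1 CPM in replicates 5 to 8 (-0.26, adjusted p 1.72e-05, limma). Of the 30 mitosis genes 2 were lower and 5 higher. TOP2A and MKI67 did not pass the test, with log2 differences of 0.07 and 0.08 (adjusted p 0.106 and 0.0905, limma). CDKN1A was lower in MeWo (-0.25, adjusted p 0.00270, limma). Histone genes were mostly not called, with 1 of 39 higher and 8 lower, and of 49 ribosomal protein genes 1 was higher and none lower. For cholesterol and fatty acid synthesis 23 of 29 genes were lower and 1 higher, with HMGCS1 (-0.46) among the lower. Of 22 interferon-stimulated genes 18 were higher and none lower, with IRF7 at 0.67 and IFIT2 at 0.47.

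**Figure D5:**
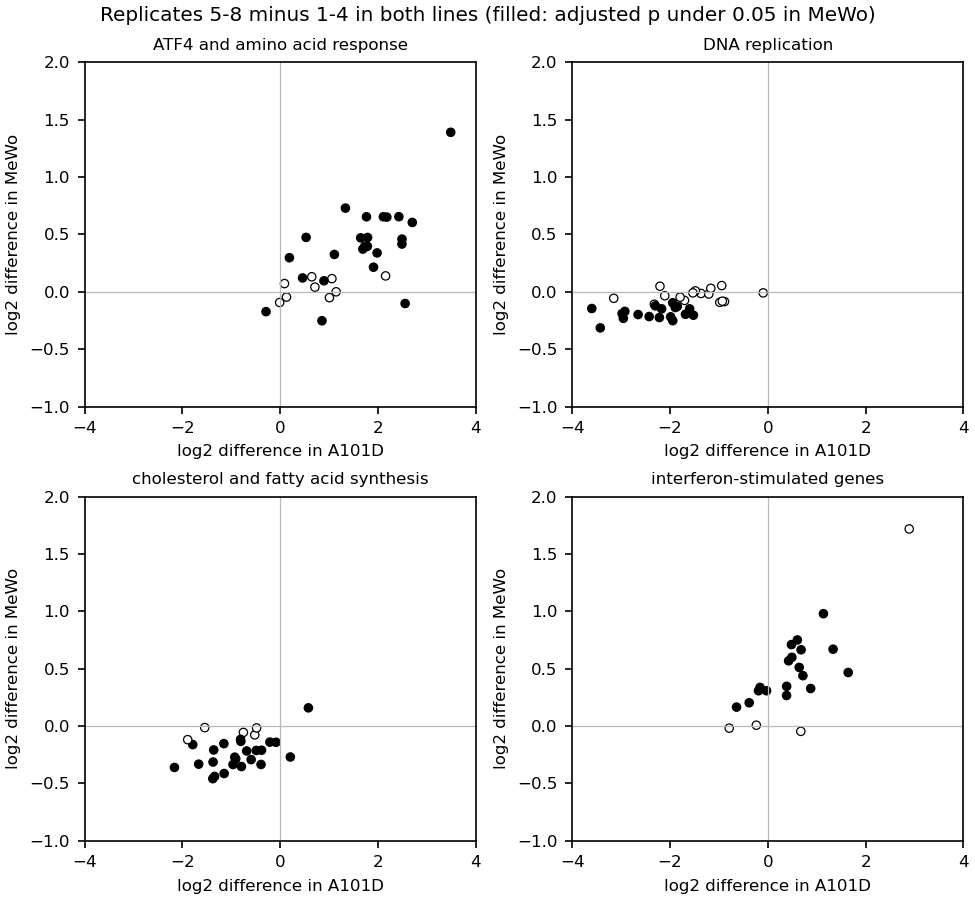
Log2 difference of replicates 5 to 8 minus replicates 1 to 4 in A101D (horizontal) and MeWo (vertical) for 4 gene lists, 1 point per gene tested in both. Filled points have an adjusted p under 0.05 in MeWo (limma). ATF4 list points lie mostly at the upper right, and DNA replication points lie far left and close to 0 on the MeWo axis.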

How the data were processed

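Total RNA of 16 libraries, 8 per line, was sequenced with a stranded kit, per the labels. The authors deposited 1 table per line with gene identifier and count joined in a cell, so the deposited columns do not pass as a plain unit, and the 2 parts were separated. The processing notes of the submitters name Trimmomatic 0.39-1, STAR 2.7.1a, featureCounts 2.0.0 and GRCh38. No source used here gives the annotation release or the strand setting, so antisense and overlapping genes may share reads. Symbols and positions are from a gene name table and GENCODE v29 (GRCh38). All 8 columns of each table were used.

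Genes needed 10 counts at the median depth in at least 4 libraries and 15 in all. Log2 differences and SE come from limma 3.58.1 with voom weights in R 4.3.3, fitted per line with TMM factors, and the script was tested on simulated data. This took the place of a count-based test, for which the joined cells had not passed. Members and lists were chosen with earlier results of these data known. Named genes are the 12 largest and 12 smallest differences at a mean of at least 10 CPM without overlap, the 4 largest of each list at 5 CPM, 34 fixed genes and the 5 with most counts. List members named beyond these, and genes with a promoter shown, were named after their values were seen. Some genes that this rule names are not reported here. Alternatives were other scaling factors, filters, fold limits, limma-trend and leaving out each replicate.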

Additional observations from a re-analysis of the deposited data

Results flagged for a closer look

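Single libraries stood away from the other 3 of their side in 14 of 326 groups of 4 libraries checked in A101D, where chance gives about 16.3. GDF15 in replicate 8 was at 2569.7 CPM, against 3101 to 3127 CPM in the others of replicates 5 to 8. IARS2 in replicate 2 was at 269 CPM, against 246 to 249 CPM in the others of replicates 1 to 4. RAD51AP1 in replicate 5 was at 4.11 CPM, against 4.85 to 4.93 CPM in the others of replicates 5 to 8. XRCC2 in replicate 3 was at 56.8 CPM, against 51.6 to 52.1 CPM in the others of replicates 1 to 4. XRCC2 in replicate 6 was at 11.9 CPM, against 12.7 to 12.9 CPM in the others of replicates 5 to 8. SRSF3 in replicate 1 was at 237 CPM, against 259 to 262 CPM in the others of replicates 1 to 4. APOD in replicate 5 was at 78.1 CPM, against 73.2 to 73.9 CPM in the others of replicates 5 to 8. CCN2 in replicate 3 was at 235 CPM, against 174 to 181 CPM in the others of replicates 1 to 4. EGR1 in replicate 8 was at 6.89 CPM, against 9.92 to 10.5 CPM in the others of replicates 5 to 8. SLC2A3 in replicate 8 was at 152 CPM, against 175 to 178 CPM in the others of replicates 5 to 8. SUV39H1 in replicate 4 was at 24.6 CPM, against 27 to 27.1 CPM in the others of replicates 1 to 4. AXL in replicate 8 was at 136 CPM, against 121 to 122 CPM in the others of replicates 5 to 8. MT-RNR2 in replicate 7 was at 8764 CPM, against 6235 to 6469.8 CPM in the others of replicates 5 to 8. THBS1 in replicate 8 was at 8207 CPM, against 7203 to 7369.7 CPM in the others of replicates 5 to 8.

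For 13 named genes the sides did not overlap in either line, and the lines went in opposite directions. The difference between the lines was not tested. In MeWo itself SMOX, PSMB9, SLC2A3, WIPI1, TOP2A and THBS1 did not pass the test, and the calls of SLC7A11, PTGS2 and CIITA were each lost under some alternatives. SLC7A11 had a log2 difference of -0.102 in MeWo and 2.55 in A101D. AMD1 had a log2 difference of 0.484 in MeWo and -0.998 in A101D. SMOX had a log2 difference of -0.0853 in MeWo and 0.998 in A101D. HMOX1 had a log2 difference of -0.326 in MeWo and 0.70 in A101D. CCN2 had a log2 difference of -0.196 in MeWo and 0.61 in A101D. PSMB9 had a log2 difference of 0.467 in MeWo and -0.63 in A101D. CIITA had a log2 difference of 0.211 in MeWo and -0.55 in A101D. PTGS2 had a log2 difference of -0.122 in MeWo and 1.52 in A101D. SLC2A3 had a log2 difference of -0.107 in MeWo and 0.93 in A101D. WIPI1 had a log2 difference of 0.0618 in MeWo and -0.56 in A101D. CDKN1A had a log2 difference of -0.252 in MeWo and 0.85 in A101D. TOP2A had a log2 difference of 0.0732 in MeWo and -2.03 in A101D. THBS1 had a log2 difference of -0.302 in MeWo and 0.61 in A101D.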

How the results depend on the processing

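No paired analysis was possible because replicates 1 to 4 and 5 to 8 of a line share no replicate number. The planned count-based tests were not run, since the deposited cells did not pass as counts. In A101D, the 1912 genes counted higher became 3152 without the low-count filter, 1191 with a filter at 1 CPM, 3439 at 1.5-fold and 503 at 4-fold. The 1180 counted lower became 2795 at 1.5-fold and 187 at 4-fold. Leaving out each replicate gave 1490 to 1909 higher and 1109 to 1211 lower. In MeWo, 1481 higher became 785 at an adjusted p under 0.01 and 27 with a 2-fold minimum, and 1703 lower became 960 and 53. With total counts only, MeWo had 1098 lower and 66.8% of its calls higher (46.5% otherwise), and the genes lower in both lines went from 243 to 158. Leaving out each replicate gave 1046 to 1708 higher and 1120 to 2054 lower in MeWo, with the fewest higher without MeWo replicate 3 and the fewest lower without MeWo replicate 1. The stricter limits call fewer genes by construction, and for the scaling and the left-out libraries the cause was not tested. Of 98 named genes counted in A101D, 94 stayed counted under every change of scaling, filter or model and every left-out replicate, and fold limits were not tried on single genes. GLA, HSPB8, LOX and SUV39H1 lay near the 2-fold limit and dropped out under some. Of the 60 counts of list members, 13 moved by over 1.5 times under an alternative other than a fold limit, none by more than 3 genes. List medians shifted by up to 0.102 with other scaling and up to 0.135 with a replicate left out, and those of the ER chaperone, transsulfuration and mitochondrial synthetase lists changed sign. Of 72 named genes called in MeWo, 19 lost the call under at least 1 alternative.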

Other observations

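Some gene groups had few or no members past 2-fold in A101D. Of 20 antigen presentation genes none was counted in either direction. Without overlap 8 were higher and 6 lower, against 32.5% and 31.9% of all genes tested. The immunoproteasome subunits PSMB8 and PSMB9 were at log2 differences of -0.61 and -0.63. None of 19 splicing kinases and SR proteins was counted, but 12 were lower and 5 higher without overlap, with a median of -0.44. CLK1, a splicing kinase, was at 0.52 ± 0.05, SRSF8 at 0.93, and SRSF2, SRSF7 and SRSF3 at -0.96, -0.89 and -0.77. Of 26 lysosome and autophagy genes 1 was counted lower, GLA (alpha-galactosidase, -1.02 ± 0.04), while RRAGC, a GTPase that brings mTORC1 to lysosomes, was at 0.88 and ULK1, which starts autophagy, at -0.67. Of 20 NRF2 targets with enough counts of 21 listed, SLC7A11 was counted higher and none lower, with HMOX1 at 0.70 and TKT at -0.87. Of 18 NRF2 targets tested in MeWo 13 were lower and none higher.

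Of 23 extracellular matrix genes with enough counts of 24 listed, 3 were counted higher and 1 lower, against 9.72% and 6.0% of all genes. COL5A1, a fibrillar collagen, was the lower one, at 12 to 13.9 CPM in replicates 1 to 4 against 3.12 to 4.34 CPM in replicates 5 to 8 (-1.75 ± 0.10), and LOX, which crosslinks collagen, was higher at 1.01 ± 0.09. COL6A3 was higher too (1.82 ± 0.15), at a mean under 5 CPM. COL3A1 had 7 counts in replicates 1 to 4 together and 53 in replicates 5 to 8. This was a depth-scaled ratio of 7.05 (exact 95% interval 3.2 to 18.4). COL3A1 passed the filter on low counts through replicates 5 to 8 alone, so it had to differ, and among the 22 matrix genes that reached the minimum in all 8 libraries 2 were counted higher and 1 lower. SPARC, a matrix glycoprotein, was at -0.54. Of the mitochondrially encoded transcripts none of 15 was counted, and 7 were higher and none lower without overlap, with MT-ND2 and MT-CO3 at 0.65 and 0.47. Among the 5 genes with most counts, TIMP3, a protease inhibitor, overlapped (7670.3 to 8082 CPM in replicates 1 to 4 against 8031 to 8869.8 CPM in replicates 5 to 8), SERPINE2 was at 0.34 ± 0.02 and THBS1 at 0.61 ± 0.10. RN7SL1, the RNA of the signal recognition particle, was at -0.46 ± 0.12, and MT-RNR2, a mitochondrial ribosomal RNA, overlapped at -0.07 ± 0.12.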
